A study of Mus musculus with 14 samples.

Results

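Old haematopoietic stem cells (HSC) were compared directly with young HSC, as 2 arrays of cells from 21 mo mice against 2 arrays of cells from 2 mo mice. These 4 arrays were taken from the 14 of the series by their labels alone, as the wild-type (WT) HSC arrays named for these ages, with no trend over age fitted and without the 6 and 12 mo WT HSC, the WT whole bone marrow (WBM) of 2 mo and the p53+/- and p53+/m HSC of 12 mo. The cells came from male C57Bl/6 mice and were sorted as side population cells, which pump out a Hoechst dye, that carried c-Kit and Sca-1 and lacked lineage markers. The labels give no transgene, deletion or drug treatment for either age. Each array held RNA of 25000 to 50000 cells, amplified by in vitro transcription in successive rounds and hybridised to a MOE430A array. Mice were pooled for each array, so an array stands for a pool of animals, its spread covers pools and handling only, and n is 2 throughout. The ages come from the sample titles and the treatment field, and another field of the labels, which states 2 mo throughout, was set aside. All levels below are log2 GC-RMA values, an intensity corrected for background by the base content of each probe, and a level is never set against that of another gene.

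HSC are rare bone marrow cells that renew themselves and give rise to every blood lineage, and most of them are quiescent at any time. In aged mice they are known for a larger pool with a poorer output per cell and a shift from lymphoid toward myeloid and platelet production. They sit close to endothelium and stroma in the marrow, to which they adhere through integrins and from which they receive Kit ligand, angiopoietin, TGF-beta and other signals. Their resting state is linked with low mitochondrial activity, tight control of protein synthesis and active handling of misfolded proteins.

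The 4 arrays were alike within an age and apart between ages. Arrays of the same age correlated at 0.994 over 22626 probe sets, at 2 mo and at 21 mo, and arrays of different ages at 0.963 to 0.964. The 2 mo HSC were nearer to the 6 mo HSC (0.988 to 0.990) than the 21 mo HSC were (0.971 to 0.977). Some control probe sets also separated the ages. The 5' probe set for 18S ribosomal RNA read 10.91 and 10.88 at 2 mo and 4.84 and 5.44 at 21 mo, and the other 10 arrays ran from 4.66 to 11.19. The bacterial BioB spike-in, added to every sample, read 10.05 and 9.91 at 2 mo and 8.41 and 8.76 at 21 mo, against 8.38 to 9.32 elsewhere. The gap between the 3' and 5' probe sets of β-actin, a measure of RNA length, was 4.59 and 4.65 at 2 mo and 3.11 and 3.55 at 21 mo. The same gap of Gapdh overlapped, at 3.92 and 3.68 against 3.20 and 4.10. The WBM arrays read near the 21 mo HSC, at 5.33 and 5.14 for 18S, 8.93 and 8.94 for BioB and 3.33 and 2.87 for the β-actin gap. Their Gapdh gap, 4.59 and 4.48, was above that of both ages. The handling differences between the 2 ages cannot be told apart from age, because each age was measured on arrays of its own.

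**Figure D1:**
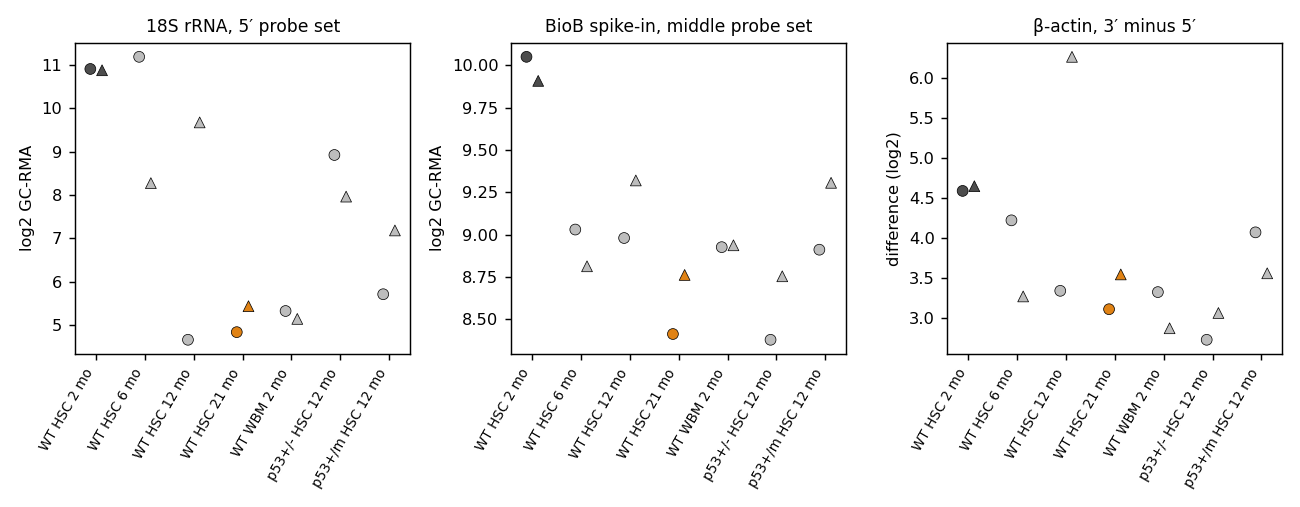
Control probe sets on the 14 arrays, with log2 GC-RMA level (or the 3' minus 5' difference) on the vertical axis and 1 point for each array (circle A, triangle B, black for 2 mo HSC, orange for 21 mo HSC, grey for the other groups). The 18S 5' probe set is near 10.9 on both 2 mo HSC arrays and between 4.84 and 5.44 on both 21 mo HSC arrays, and the BioB spike-in is higher on the 2 mo HSC arrays than on any other.

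The sorted cells carried the genes that define HSC at both ages. Procr, a surface receptor used to isolate HSC, read 12.78 and 13.002 at 2 mo and 13.62 and 14.09 at 21 mo, against 4.27 in WBM of 2 mo. All 4 arrays were high and the ages did not overlap, with an adjusted p of 0.102. Lack of overlap was common, as 2620 of 12393 genes were higher and 6122 lower at 21 mo without it. Cd48 and Il7r, which mark more mature progenitors, stayed at 2.70 to 3.08 on the 4 arrays against 10.41 and 11.24 in WBM. Flt3, also listed as absent in HSC, was well above that range on all 4 arrays, with its values given below. Cd34 read 10.51 and 10.64 at 2 mo and 10.81 and 10.33 at 21 mo. Of 26 measured HSC markers, 21 had a mean of at least 5 at 2 mo and 22 at 21 mo. Markers of other blood cells were low but not absent. The erythroid genes Klf1 and Alas2 and the T cell genes Cd3e and Cd3d were at or below 2.53 on every array. Neutrophil granule genes, all 15 summed, came to 11.63 and 11.03 at 2 mo and 12.85 and 12.11 at 21 mo, against 17.59 in WBM, and 0 of the 15 passed limma's adjusted test (4 were higher at an unadjusted p of 0.05 and 2-fold). Ngp, a granule protein, read 7.22 and 7.40 at 2 mo and 10.60 and 9.11 at 21 mo. The sum of 19 monocyte and macrophage genes was 13.34 and 13.22 at 2 mo and 13.70 and 13.86 at 21 mo (WBM 16.59), that of 16 B lineage genes 9.07 and 9.12 against 8.52 and 8.51 (WBM 13.54), and that of 13 erythroid genes 12.05 and 12.10 against 12.67 and 12.30 (WBM 16.60). Outside the platelet list, 4 genes of the blood cell lists passed, Ly86 (monocytes) and Cd28 (T cells) higher and Cd79b (B cells) and Irf8 (dendritic cells) lower. In such bulk samples fewer cells of a type and less RNA per cell cannot be told apart, and the part of admixed cells in the results was not tested.

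In all, 563 genes were higher and 616 were lower in old than in young HSC. This was read on 12393 genes, each by the brightest of its probe sets, as 4.54% of genes higher and 4.97% lower by limma at a Benjamini-Hochberg adjusted p under 0.05 and at least 2-fold. On probe sets the counts were 1083 higher (4.79%) and 899 lower (3.97%). The median difference among the called genes was 3.24-fold for those higher and 3.01-fold for those lower. Differences past 8-fold were found for 53 genes higher and 22 lower. Most called genes lay above the low range, with 537 of the higher and 589 of the lower genes at log2 5 or above on at least 2 arrays. In 96 of the higher and 98 of the lower genes the lower of the 2 means was under 5, where a fold is less sure. The median of all genes was -0.03. WBM of 2 mo lay nearer to the 21 mo than to the 2 mo HSC for 322 of 563 genes higher at 21 mo (57.2%) and for 517 of 616 genes lower at 21 mo (83.9%). These genes were chosen by their levels on the same HSC arrays, and the share over all genes was not computed. The shares therefore do not measure a likeness of WBM to old HSC. Over all probe sets WBM correlated at 0.909 to 0.911 with 21 mo HSC and at 0.885 to 0.893 with 2 mo HSC. The calls rest on few arrays. Without either 2 mo array no gene passed the adjusted test, at smallest adjusted p values of 0.0585 and 0.0596, although 855 to 916 genes were higher and 914 to 970 lower at an unadjusted p of 0.05 and 2-fold. With the spread taken from all 8 WT HSC arrays, 84 genes were higher and 155 lower.

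**Figure D2:**
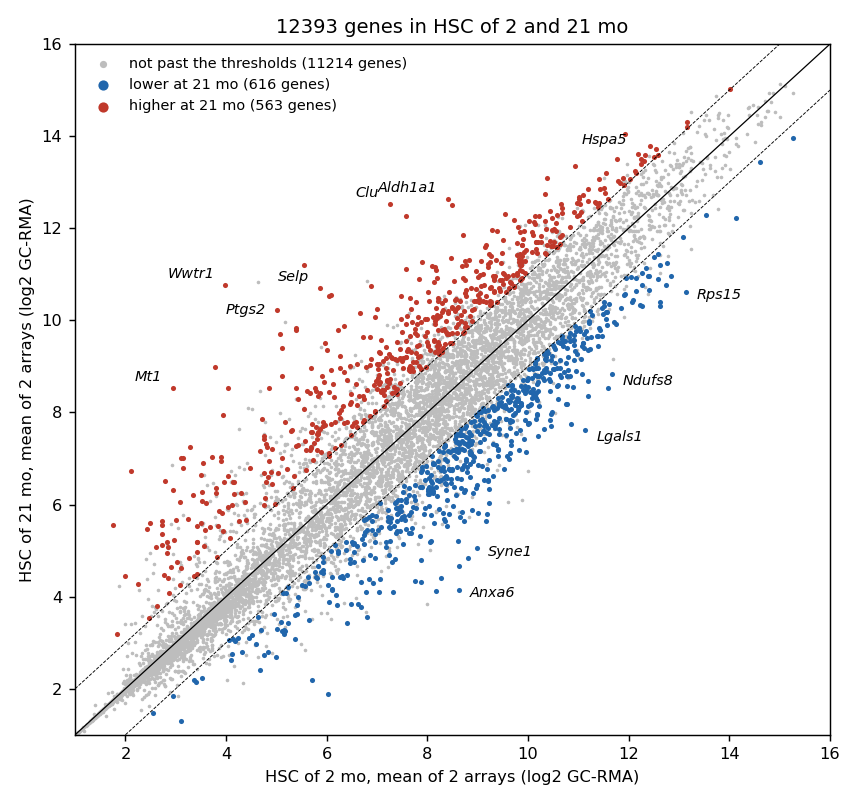
Mean level of each of 12393 genes in 21 mo HSC (vertical axis) against 2 mo HSC (horizontal axis), both in log2 GC-RMA, with the lines of no difference and of 2-fold. The 563 genes called higher and the 616 called lower lie on both sides over most of the range, and some genes named in the text are labelled.

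The largest rises among genes present at both ages included a secreted chaperone, a platelet adhesion receptor, a prostaglandin enzyme and an enzyme of retinoic acid synthesis. Clu, the secreted chaperone clusterin, read 7.19 and 7.30 at 2 mo and 12.13 and 12.91 at 21 mo. Both old arrays were far above both young arrays, a 38.6-fold rise (log2 difference 5.27, SE 0.33, adjusted p = 0.0185). Its other 3 probe sets rose by at least 4.18 on the log2 scale. Selp, the P-selectin that tethers leukocytes to platelets and endothelium, read 5.86 and 5.85 at 2 mo and 10.63 and 10.78 at 21 mo. This was a 28.8-fold rise with almost no spread (SE 0.067, adjusted p = 0.00915), and the level in WBM was 5.45. A second probe set of Selp read 3.26 and 3.58 at 2 mo and 10.15 and 11.12 at 21 mo. Ptgs2, the inducible cyclooxygenase that starts prostaglandin synthesis, read 4.71 and 5.30 at 2 mo and 9.75 and 10.70 at 21 mo, a 37.3-fold rise (adjusted p = 0.0271). Its second probe set stayed between 3.59 and 4.20 on all 4 arrays. Aldh1a1, which makes retinoic acid from retinaldehyde, went from 8.26 and 8.57 to 12.49 and 12.76, 18.5-fold higher with no overlap (adjusted p = 0.0142).

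Further genes of this size were of membrane, receptor and nucleolar kinds. The widest of them was Clca3a1, named as a chloride channel accessory protein, at 6.25 and 4.85 at 2 mo and 10.84 and 11.55 at 21 mo, a 49.9-fold rise with the young arrays well apart from each other (SE 0.65, adjusted p = 0.0389). Cavin2, a coat protein of caveolae that is abundant in platelets, rose 25.7-fold, from 7.35 and 7.79 to 12.25 and 12.26, and its second probe set rose from 2.59 and 2.63 to 7.52 and 7.37. Neo1, the receptor neogenin that binds netrins and repulsive guidance molecules, rose 21.3-fold from 5.39 and 5.37 to 9.64 and 9.95. Ghr, the growth hormone receptor, was 19.5-fold higher, at 5.54 and 4.68 at 2 mo and 9.01 and 9.79 at 21 mo. Tm4sf1, a tetraspanin-like membrane protein, and Plscr2, a phospholipid scramblase, were 16.2- and 21.9-fold higher. Nop58, a core protein of the box C/D nucleolar particles that methylate ribosomal RNA, rose 22.6-fold. Mapk6, the atypical kinase ERK3, rose 22.3-fold from 6.17 and 5.98 to 10.39 and 10.72. Further probe sets of Mapk6, Tm4sf1 and Ghr stayed low on all arrays and did not pass, while another of Ghr rose by 2.155 on the log2 scale. Sult1a1, a sulfotransferase of phenols, had 6.87 and 6.88 at 2 mo and 10.79 and 10.69 at 21 mo, with arrays of an age close together (SE 0.051, adjusted p = 0.00915).

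Other genes rose from a level under 5, where the size of a fold is less sure. Wwtr1, the transcriptional coactivator TAZ of the Hippo pathway, read 3.71 and 4.25 at 2 mo and 10.69 and 10.85 at 21 mo, the largest difference of all called genes at 111-fold. Its other 2 probe sets rose less, by 0.88 and 1.38 on the log2 scale, and only the second passed the adjusted test. Mt1, a metal-binding metallothionein, went from 2.95 and 2.92 to 8.62 and 8.42, and Mt2, its neighbour of the same family, from 7.21 and 6.72 to 9.92 and 10.23. The other Mt1 probe set did not move, at 2.21 to 2.23 on the 4 arrays. Gstm2, a glutathione transferase, was 22.6-fold higher. Ripk4, a kinase, read 3.62 and 3.92 at 2 mo and 8.86 and 9.12 at 21 mo, and Ly86, the partner MD-1 of the receptor RP105 on B cells and macrophages, 2.50 and 1.70 at 2 mo and 6.30 and 7.13 at 21 mo. Slfn4, of the Schlafen family, went from 1.76 and 1.74 to 5.07 and 6.02, and Serpinb9, an inhibitor of granzyme B, from 3.69 and 2.89 to 7.70 and 6.81.

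The largest falls were mixed with respect to function, with nuclear envelope, matrix, lipid and RNA polymerase genes. Syne1, the giant nesprin that ties the nucleus to the cytoskeleton, read 9.05 and 8.92 at 2 mo and 4.55 and 5.55 at 21 mo, a 15.3-fold fall (adjusted p = 0.0341). Lgals1, the galactose-binding lectin galectin-1, read 11.21 and 11.06 at 2 mo and 7.67 and 7.54 at 21 mo, 11.5-fold lower with no overlap (SE 0.084, adjusted p = 0.0108). Its second probe set fell by 3.75 on the log2 scale. Srebf1, the transcription factor that drives fatty acid synthesis, fell 11.5-fold, and Mmp2, a gelatinase, 10.5-fold. A second Mmp2 probe set fell from 7.63 and 8.44 to 3.30 and 3.66. H2aj, a histone H2A variant, read 11.61 and 11.55 at 2 mo and 8.56 and 8.48 at 21 mo, with arrays of an age nearly identical (SE 0.05, adjusted p = 0.00915). Cops7b, a subunit of the COP9 signalosome, went from 10.92 and 10.81 to 7.64 and 7.84. Rrad, a small GTPase that inhibits calcium channels, Shfl, an inhibitor of ribosomal frameshifting, and Emilin1, an elastic fibre protein, fell 7.98-, 8.55- and 7.31-fold. Dimmer probe sets of Syne1, Cops7b, Emilin1 and H2aj did not pass, while another of H2aj fell by 2.87 on the log2 scale.

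Genes that fell to a level under 5 were led by Anxa6, a calcium-dependent membrane-binding annexin, at 8.59 and 8.66 at 2 mo and 4.08 and 4.20 at 21 mo. Both old arrays were low and far from both young arrays, a 22.4-fold fall (adjusted p = 0.00915), and a second probe set fell by 3.28 on the log2 scale. Nbeal2, needed for platelet granules, went from 8.30 and 8.04 to 3.84 and 4.38. Wwox, an oxidoreductase with tumour suppressor activity, went from 8.9985 and 8.60 to 4.37 and 5.32, and Tcf19 from 7.35 and 8.41 to 4.61 and 4.04. The other Wwox probe sets stayed at 2.24 to 2.43 on all arrays. Cd79b, a chain of the B cell receptor complex, read 7.60 and 7.91 at 2 mo and 4.89 and 3.80 at 21 mo, whereas Cd79a, its partner, stayed at 2.33 to 2.39. Airn, the long noncoding RNA that runs antisense to Igf2r, read 6.83 and 6.77 at 2 mo and 3.59 and 3.52 at 21 mo. Its signal cannot be set apart from those of an overlapping transcript.

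**Figure D3:**
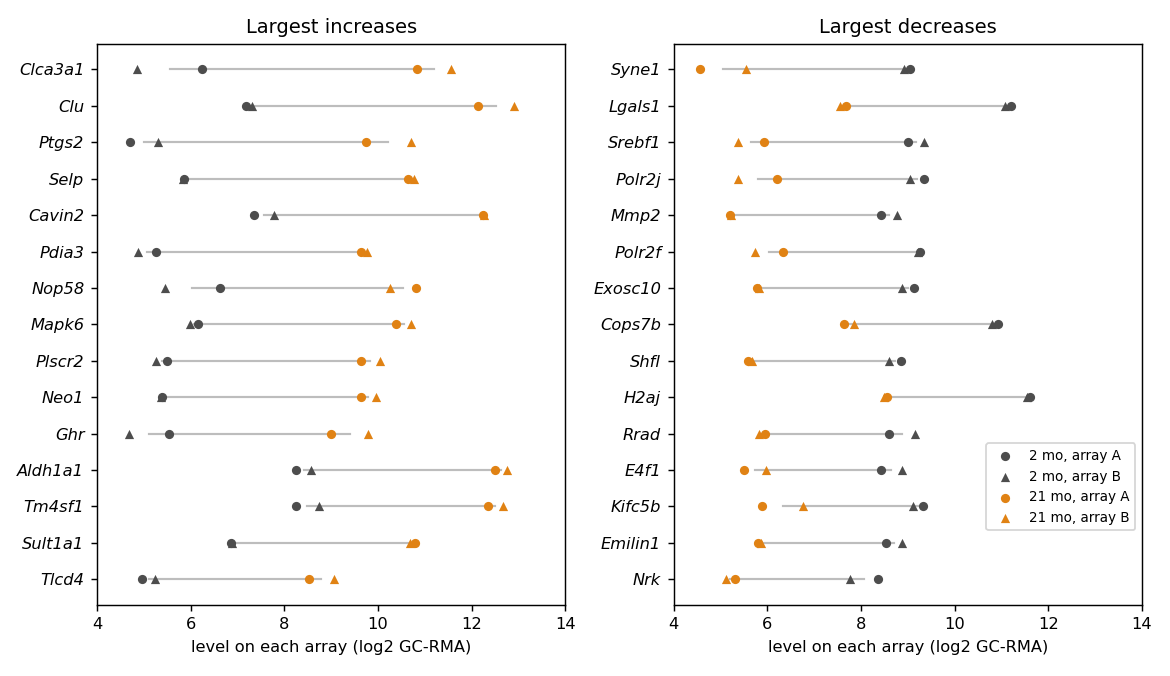
Level (log2 GC-RMA, horizontal axis) of the 15 largest rises and 15 largest falls among called genes with a mean of at least 5 at both ages, with 1 symbol for each of the 4 arrays and a grey line between the means. For every gene the symbols of the 2 ages lie apart, with the widest spread between same-age arrays for Clca3a1 at 2 mo.

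Genes that mark or sustain stem cells moved in both directions, with more higher than lower. Of 26 HSC markers, 5 (19.2%, against 4.54% of all genes) rose and 2 (7.69%, against 4.97%) fell. Their median was 0.30, against -0.03 over all genes. The counts of each list below are likewise to be read against 4.54% of all genes higher and 4.97% lower. Calls were more common among brighter genes. Of the 6209 genes at log2 5 or above on at least 2 arrays, 537 were higher and 589 lower. Of the 6184 others 26 were higher and 27 lower. A list made mostly of brighter genes would thus hold more calls by its level alone. Kit, the receptor for stem cell factor by which these cells were sorted, read 8.24 and 8.34 at 2 mo and 10.15 and 10.18 at 21 mo, a 3.68-fold rise (adjusted p = 0.0110). Alcam, an adhesion molecule of long-term HSC, rose 5.60-fold, and Tek, the angiopoietin receptor Tie2 that holds HSC at rest, 3.25-fold. Eng, the endoglin co-receptor for TGF-beta, fell 3.17-fold from 7.96 and 8.05 to 6.26 and 6.43, and Robo4, a guidance receptor on HSC and endothelium, fell 3.03-fold. Slamf1, the CD150 used to split HSC by lineage bias, read 3.54 and 4.90 at 2 mo and 5.68 and 6.32 at 21 mo and did not pass (adjusted p = 0.204). Flt3, the receptor of multipotent lymphoid-primed progenitors, was below its young levels on both old arrays at 9.03 and 8.10 at 2 mo and 6.68 and 5.83 at 21 mo, also without passing (adjusted p = 0.101). Vwf, a platelet and endothelial protein found on myeloid- and platelet-biased HSC, read 9.25 and 9.54 at 2 mo and 9.80 and 10.74 at 21 mo with an adjusted p of 0.301.

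Among 41 stem cell transcription factors 6 rose and 2 fell (median 0.16). Meis1, which keeps HSC quiescent with Hox partners, read 10.77 and 10.91 at 2 mo and 12.04 and 12.01 at 21 mo, and Hlf, a bZIP factor of the most primitive HSC, 10.06 and 9.71 at 2 mo and 11.55 and 11.24 at 21 mo. Both were higher on each old array, by 2.28- and 2.84-fold. Mycn, of the Myc family, rose 4.60-fold from 6.71 and 6.86 to 8.68 and 9.30, Cebpb, a driver of emergency granulopoiesis, 3.07-fold, Cbfb, the partner of the Runx factors, 2.91-fold, and Foxo1, a stress-resistance factor, 2.51-fold. Gfi1, a repressor that restrains HSC proliferation and supports lymphoid and neutrophil fates, fell 6.25-fold, from 8.65 and 7.9994 to 5.67 and 5.69. Ldb1, the bridge of the Tal1 and Gata complex, fell 3.64-fold. Satb1, a chromatin organiser that favours lymphoid output, was named after its values were seen and read 9.64 and 10.34 at 2 mo and 7.84 and 7.70 at 21 mo, 4.67-fold lower. Of 38 Hox and TALE homeobox genes, Hoxa5 fell 3.56-fold and Pbx3 rose 3.70-fold beside Meis1.

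Several platelet genes rose. Of 24 megakaryocyte and platelet genes 7 (29.2%) rose and 0 fell by limma, with 0 lower at an unadjusted p of 0.05 and 2-fold and a median of 0.17. Beside Clu, Selp and Cavin2, the snake-venom receptor Clec1b (CLEC-2) read 4.13 and 3.96 at 2 mo and 6.60 and 6.66 at 21 mo, 5.98-fold higher. Cd9, a tetraspanin of platelets and stem cells, rose 4.81-fold from 7.59 and 7.39 to 9.95 and 9.56. Rab27b, which moves dense granules, and Plek, a kinase substrate of platelets, rose 2.34- and 2.28-fold. Itga2b, the platelet integrin CD41, read 6.47 and 6.0044 at 2 mo and 7.81 and 7.49 at 21 mo without passing (adjusted p = 0.0642). Many defining genes of megakaryocytes and platelets were low on all arrays or did not rise. Gp9, Gp5, Gp1bb, Itgb3, Gata1 and Ppbp stayed at 1.45 to 2.84 on the 4 arrays. Pf4, a platelet chemokine, read 9.56 and 8.29 at 2 mo and 9.21 and 7.97 at 21 mo, and Nfe2 7.99 and 7.52 at 2 mo and 7.70 and 7.36 at 21 mo. The list's summed level was 13.65 and 13.53 at 2 mo and 15.10 and 15.17 at 21 mo, above the 13.43 of WBM. At 21 mo this sum was set mostly by its brightest members, Plek, F2r, Clu and Cavin2.

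Some adhesion receptors rose. Of 33 integrins and selectins 5 (15.2%) rose and 1 (3.03%) fell, with a median of -0.02. Itgb1, the β1 chain that HSC need to lodge in marrow, rose 3.18-fold from 8.43 and 8.75 to 10.05 and 10.48, and Itga3, a laminin-binding α chain, 3.28-fold. F11r, the junctional adhesion molecule JAM-A, read 6.15 and 6.37 at 2 mo and 9.24 and 9.21 at 21 mo, 7.82-fold higher. Itgb5 fell to a low level, from 4.99 and 5.25 to 3.23 and 3.27. Gja1, the gap junction protein connexin 43 that HSC use to pass reactive oxygen to stroma, rose 5.39-fold, and Ctnnb1, the β-catenin of junctions and Wnt signalling, 2.23-fold. It was the only one of 51 Wnt pathway genes to pass. Efna1, an ephrin ligand, and Plxnc1, a semaphorin receptor, rose 3.09- and 2.54-fold. Of 52 receptors for cytokines and growth factors 4 (7.69%, against 4.54% of all genes) were higher (Ghr, Kit, Tek and the interleukin 17 receptor Il17ra) and 1 lower. That was Csf2ra, the receptor for GM-CSF, at 7.57 and 7.54 at 2 mo and 5.52 and 5.80 at 21 mo.

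Genes of prostaglandin synthesis moved in both directions. Of 25 eicosanoid genes 2 rose and 2 fell (median -0.02). Ptgs2 was joined by Pla2g4a, the phospholipase that releases arachidonic acid for it, which rose 3.09-fold. Pla2g6, a calcium-independent phospholipase, fell 7.49-fold, and Lta4h, which makes leukotriene B4, 2.05-fold. Ptger4, a receptor for a prostaglandin made downstream of Ptgs2, read 9.64 and 10.25 at 2 mo and 11.80 and 12.34 at 21 mo and did not pass (adjusted p = 0.0596). Of 31 complement and coagulation genes 3 rose and 0 fell (4 and 1 without adjustment). These were Clu, an inhibitor of the terminal complement complex, Pros1, the anticoagulant protein S, which went from 5.0038 and 4.71 to 7.92 and 9.14, and Thbd, thrombomodulin, which went from 3.58 and 3.24 to 5.15 and 5.21. Of 33 NF-kB and Toll-like receptor genes 3 rose and 3 fell. Bcl10 and Ikbkg, which feed the kinase that frees NF-kB, rose 2.72- and 2.41-fold, whereas Relb, a subunit of the noncanonical complex, and Tnip1, an inhibitor, fell 2.54- and 2.70-fold. Traf6, an adaptor above them, rose 2.87-fold. The inhibitor Nfkbia read 13.14 and 12.92 at 2 mo and 12.89 and 12.67 at 21 mo.

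Interferon-induced genes were divided, with 5 of 51 (9.80%) higher and 3 (5.88%) lower (median -0.02). Irgm1, a GTPase that protects HSC from interferon-driven proliferation, read 6.91 and 6.79 at 2 mo and 9.38 and 8.68 at 21 mo, 4.53-fold higher. Gbp8, Oasl2, Trim30a and the class I molecule H2-D1 rose 2.59-, 2.22-, 2.19- and 2.00-fold. The factors Irf8 and Irf3 and the protein Ifi35 fell 3.40-, 3.22- and 3.12-fold. The MHC class II gene H2-Eb1 read 8.01 and 7.78 at 2 mo and 9.78 and 8.72 at 21 mo and did not pass (adjusted p = 0.187). Ccl6, a myeloid chemokine, was the only one of 47 chemokine and receptor genes to pass, at 3.09 and 3.06 at 2 mo and 6.32 and 5.78 at 21 mo.

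Some genes that respond within minutes to signals or stress rose. Of 36 immediate early genes 5 (13.9%) rose and 1 (2.78%) fell, their median difference was 0.82 and 29 of 36 were above 0. Above 0 were also 3697 of all 12393 genes, and 3028 of the 6209 at log2 5 or above on at least 2 arrays. Dusp6, a phosphatase that switches off ERK, read 8.24 and 8.09 at 2 mo and 11.07 and 11.13 at 21 mo, 7.65-fold higher (adjusted p = 0.0109). Zfp36, which destroys messages of inflammatory cytokines, rose 6.81-fold from 9.72 and 9.35 to 12.26 and 12.34. Gadd45a, a sensor of DNA damage, rose 4.98-fold, whereas Gadd45b, its relative induced by TGF-beta and NF-kB, fell 5.39-fold from 8.46 and 9.05 to 6.44 and 6.21. Fos read 12.41 and 12.26 at 2 mo and 13.36 and 13.17 at 21 mo, with an adjusted p of 0.0364, but its difference of 0.93 missed the 2-fold threshold. Egr1, linked with HSC quiescence, read 10.98 and 11.16 at 2 mo and 12.70 and 12.10 at 21 mo (adjusted p = 0.0806), and Jun read 10.88 and 10.64 at 2 mo and 12.37 and 11.29 at 21 mo (adjusted p = 0.271).

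Of 54 genes for MAP kinases and dual specificity phosphatases 6 (11.1%) rose and 0 fell (10 and 2 at an unadjusted p of 0.05 and 2-fold). Beside Mapk6 and Dusp6 these were Dusp16 and Dusp3, which inactivate MAP kinases, at 3.86- and 2.28-fold, Map2k4, a kinase above JNK, at 3.39-fold, and Spry1, an inhibitor of receptor tyrosine kinase signalling, which went from 1.92 and 1.75 to 3.30 and 3.09. Hes1, the Notch target that restrains differentiation, rose 10.3-fold, from 3.70 and 3.38 to 7.03 and 6.79, while the γ-secretase subunits Aph1a and Psenen fell 3.43- and 2.30-fold. In the TGF-beta and BMP list of 49 genes, 5 rose and 4 fell. Bmp4 read 4.03 and 3.59 at 2 mo and 6.20 and 6.28 at 21 mo and its receptors Bmpr1a and Acvr1 rose 4.88- and 3.72-fold. The inhibitor Smad7 rose 2.78-fold and the repressor Tgif1 went from 2.89 and 2.82 to 5.39 and 4.78, whereas the shared mediator Smad4 fell 2.86-fold and the receptor Acvr2b went from 4.98 and 4.9959 to 2.67 and 2.69. Bhlhe40, a repressor tied to the circadian clock, rose 8.03-fold from 8.12 and 8.18 to 11.06 and 11.25. Ddit4, an inhibitor of mTOR, rose 3.11-fold. Stk11, the kinase LKB1 that HSC need for energy balance, fell 2.59-fold and Prkab1, a subunit of the kinase AMPK it activates, 2.50-fold.

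Several chaperones of the endoplasmic reticulum (ER), where secreted and membrane proteins fold, rose. Of 31 genes of ER chaperones and the unfolded protein response 6 (19.4%) rose and 1 fell, with a median of 0.49. Hspa5, the chaperone BiP that senses unfolded protein, read 12.13 and 12.24 at 2 mo and 13.65 and 13.55 at 21 mo, 2.68-fold higher (adjusted p = 0.0150). The lectin chaperones Calr and Canx, which hold sugar-bearing proteins until they fold, rose from 11.05 and 11.06 to 12.56 and 12.15 and from 11.99 and 12.29 to 13.15 and 13.24. Pdia3, the disulphide isomerase that works with that pair, went from 5.27 and 4.89 to 9.63 and 9.77, a 24.7-fold rise (SE 0.17, adjusted p = 0.0130). Herpud1, a part of ER-associated degradation, and Ero1a, the oxidase that feeds disulphide formation, rose 4.06- and 3.87-fold. Ddit3, the factor CHOP of prolonged ER stress, moved the other way, from 9.54 and 9.73 to 7.19 and 7.03. Xbp1 read 11.48 and 11.43 at 2 mo and 11.88 and 12.06 at 21 mo and Atf4 11.80 and 11.70 at 2 mo and 11.39 and 11.66 at 21 mo, and neither passed. With the spread of all 8 WT HSC arrays 0 of the 6 rises passed, and with either 21 mo array left out 4 and 1 did.

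The ER stress element, the letters CCAAT and CCACG with 9 bases between them on either strand, lies in the 250 bases before the start of Hspa5, Calr and Canx. It is shown because these are the only genes of the 457 called higher with a promoter in the RefSeq table (GRCm38.p6) that hold it. It occurs in 0.122% of 27025 promoters, in 16 of 9882 promoters of measured genes, in 9 of 27 of the ER list and in 0 of 505 of genes called lower. A match is a description of letters, not a site or a cause. The windows are chr2:34771840-34772089 on the plus strand for Hspa5, chr8:84846932-84847181 on the minus strand for Calr and chr11:50325674-50325923 on the minus strand for Canx. Each runs 5' to 3' toward the start of the gene, with the element in capitals, and it starts 65, 162 and 145 bases before the gene's start.
Hspa5: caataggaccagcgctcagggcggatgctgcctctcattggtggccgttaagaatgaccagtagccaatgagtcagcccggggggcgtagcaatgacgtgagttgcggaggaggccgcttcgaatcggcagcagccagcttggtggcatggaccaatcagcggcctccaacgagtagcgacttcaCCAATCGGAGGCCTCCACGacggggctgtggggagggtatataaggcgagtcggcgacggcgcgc
Calr: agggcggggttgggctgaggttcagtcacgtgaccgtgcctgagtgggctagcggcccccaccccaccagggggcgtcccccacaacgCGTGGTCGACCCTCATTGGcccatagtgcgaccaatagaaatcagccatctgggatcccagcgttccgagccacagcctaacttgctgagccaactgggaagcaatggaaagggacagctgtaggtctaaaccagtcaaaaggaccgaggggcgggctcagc
Canx: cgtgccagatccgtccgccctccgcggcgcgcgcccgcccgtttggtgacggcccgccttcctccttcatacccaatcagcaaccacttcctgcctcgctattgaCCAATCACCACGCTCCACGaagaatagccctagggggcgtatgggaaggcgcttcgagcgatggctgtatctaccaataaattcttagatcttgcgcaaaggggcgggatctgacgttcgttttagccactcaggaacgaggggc

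Several cytosolic chaperones rose. Of 77 heat shock and chaperonin genes 10 rose and 0 fell (11 and 0 at an unadjusted p of 0.05 and 2-fold). Their median was 0.35 and 30 of 77 were below 0, against 8696 of all 12393 genes. Dnaja2, a co-chaperone of Hsp70, read 6.04 and 6.66 at 2 mo and 10.03 and 9.74 at 21 mo, 11.6-fold higher. Cct8 and Cct6a, subunits of the ring that folds actin and tubulin, rose 8.83- and 2.23-fold, Cct8 from 8.49 and 8.92 to 11.90 and 11.80. Bag3, which hands clients from Hsp70 to autophagy, rose 5.05-fold, and Dnajb6, Dnajb4 and Dnajb2, further co-chaperones, 3.17-, 3.06- and 2.61-fold. Hspa8, the constitutive Hsp70, read 13.90 and 14.04 at 2 mo and 14.39 and 14.54 at 21 mo and Hsp90aa1 12.998 and 13.37 at 2 mo and 13.60 and 13.88 at 21 mo, and neither passed. Proteasome subunits were split, with 3 of 46 higher and 4 lower (median -0.11). Psmc5, an ATPase of the base, and Psmb7, a catalytic subunit, rose 4.82- and 4.01-fold, whereas Psmb6 and Psmb5, the other 2 catalytic subunits, fell 2.89- and 2.23-fold. In the autophagy and lysosome list of 52 genes 6 rose and 3 fell. Atg12, which is conjugated to make autophagosomes, rose 4.54-fold, Gabarapl2 3.43-fold, and the protease Ctsb 4.27-fold. The lysosomal galactosidase Gla rose from a low level, 2.88 and 2.56 to 5.70 and 5.41. Atg16l1, the partner of the Atg12 conjugate, and Map1lc3a, an LC3 protein, fell 3.53- and 3.68-fold.

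Several Rab GTPases, which give membrane compartments their identity, rose. Of 50 genes 7 rose and 0 fell (8 and 1 at an unadjusted p of 0.05 and 2-fold). The median was 0.05 with 24 of 50 below 0, against 8696 of all 12393 genes, and it was 0.67 among the 33 at log2 5 or above. Rab18, a protein of the ER and lipid droplets, read 8.39 and 8.56 at 2 mo and 11.62 and 11.09 at 21 mo, 7.40-fold higher. Rab32, of mitochondria and lysosome-related organelles, rose 5.63-fold. Rab7, of late endosomes, Rab2a and Rab6a, of Golgi traffic, and Rab11a, of recycling endosomes, rose 2.72-, 2.40-, 2.28- and 2.27-fold. The larger list of 130 SNARE, coat and ESCRT genes held 7 higher and 11 lower. The falls included Vps39, Vps11 and Vps16, members of the tether that acts with Rab7, at 4.22-, 2.96- and 2.81-fold. Of 21 subunits of the proton pump V-ATPase 3 rose, led by Atp6v1a at 4.62-fold, and 2 fell.

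Genes of the cytoskeleton moved in both directions. Msn, the moesin that links actin to the membrane, rose 4.67-fold from 9.01 and 9.14 to 11.20 and 11.39, and Cfl1, the actin-severing cofilin, 4.37-fold. The leukocyte myosin Myo1g fell 5.84-fold. Of 52 tubulin, kinesin and dynein genes 1 rose and 6 fell. Kif2c and Kif22, kinesins of the mitotic spindle, fell 7.74- and 3.66-fold. Dctn1, Dctn2 and Dctn6, subunits of the dynein activator dynactin, fell 6.26-, 2.24- and 3.35-fold. Kif1b, an axonal transport motor, rose 9.74-fold from 5.46 and 5.90 to 8.73 and 9.20.

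**Figure D4:**
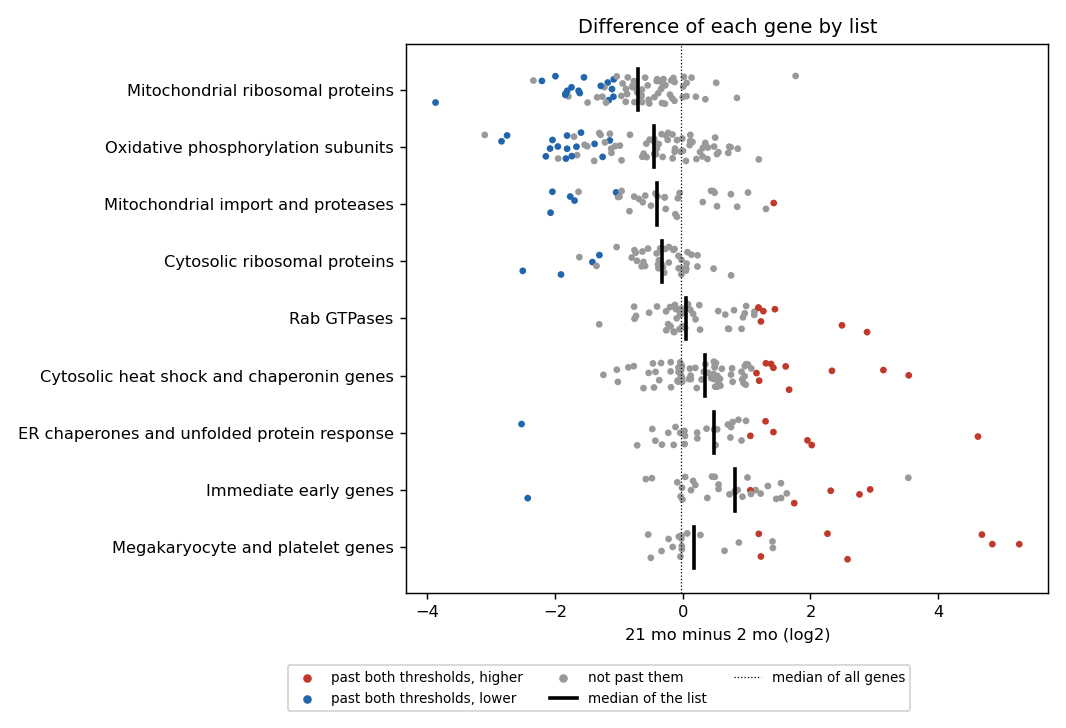
Log2 difference (21 mo minus 2 mo, horizontal axis) of every measured gene in 9 gene lists, with 1 point a gene, colour for genes past both thresholds, a bar at each list's median and a dotted line at the median of all genes. Called points of the mitochondrial ribosomal and oxidative phosphorylation lists lie on the left only, and those of the Rab, heat shock and platelet lists on the right only.

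Several genes for the mitochondrial machinery fell in old HSC. Of 74 mitochondrial ribosomal proteins, which make the few proteins encoded in mitochondria, 16 (21.6%, against 4.97% of all genes) fell and 0 rose by limma, and 22 and 0 at an unadjusted p of 0.05 and 2-fold. The median was -0.70 against -0.03 over all genes, and 64 of 74 were below 0, where 8696 of all 12393 genes were. Of 78 subunits of oxidative phosphorylation, the respiratory chain and ATP synthase, 15 (19.2%) fell and 0 rose, 26 and 1 without adjustment, with a median of -0.45 and 55 of 78 below 0. Of 35 genes of mitochondrial import and proteases 5 fell and 1 rose (median -0.40, with 25 of 35 below 0). With the spread of all 8 WT HSC arrays 6 of the mitochondrial ribosomal falls passed, and without the first or second 21 mo array 8 and 5 passed.

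Several complexes of the respiratory chain were represented. In complex I, Ndufs8, an iron-sulphur subunit, read 11.60 and 11.74 at 2 mo and 8.97 and 8.69 at 21 mo, 7.16-fold lower (SE 0.13, adjusted p = 0.0151). Ndufa8 went from 10.20 and 10.25 to 8.42 and 7.87 and Ndufs7, another iron-sulphur subunit, from 11.59 and 11.52 to 10.24 and 10.10. Ndufa7, Ndufs5, Ndufb10, Ndufa13, Ndufv3 and Ndufb2 fell 4.42-, 4.12-, 3.56-, 3.34-, 3.02- and 2.39-fold. In complex II, Sdhb, the iron-sulphur subunit of succinate dehydrogenase, read 10.49 and 10.44 at 2 mo and 7.96 and 7.46 at 21 mo, a 6.74-fold fall with no overlap (adjusted p = 0.0234). The other subunits of this complex, Sdha, Sdhc and Sdhd, went the other way without passing, by 0.32, 1.19 and 0.71 on the log2 scale. In complex III, Cyc1, the haem-bearing cytochrome c1, fell 3.17-fold, while Uqcrc1, a core subunit, read 8.28 and 8.48 at 2 mo and 8.84 and 8.46 at 21 mo. In complex IV, Cox5b went from 12.32 and 12.23 to 10.40 and 10.23 and Cox6b1 from 12.60 and 12.54 to 11.57 and 11.29. Of the ATP synthase, Atp5d and Atp5j2 fell 3.51- and 3.51-fold. Its other subunits went both ways without passing, for example Atp5a1 by 0.54, Atp5c1 by 0.75 and Atp5g1 by -1.66 on the log2 scale.

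The falls included genes of both subunits of the mitochondrial ribosome. Mrps7, Mrps16, Mrps18a and Mrps24 of the small subunit fell 3.35-, 3.99-, 4.62- and 3.58-fold, with Mrps7 at 8.72 and 8.97 at 2 mo and 7.04 and 7.16 at 21 mo. Mrpl58, a release factor built into the large subunit, went from 8.48 and 8.07 to 4.75 and 4.05, the largest fall of the list, and Mrpl43 and Mrpl41 fell 3.57- and 3.06-fold. Of the import genes, Timm44, which docks the import motor, fell 4.20-fold, Timm13 and Timm10b, chaperones of the space between membranes, 3.24- and 3.39-fold, and Timm50, a receptor, 2.06-fold, whereas Timm8a1 rose 2.69-fold. Clpp, the matrix protease, read 9.27 and 9.84 at 2 mo and 7.53 and 7.49 at 21 mo. WBM of 2 mo lay nearer to old than to young HSC for all 16 mitochondrial ribosomal falls and all 15 of oxidative phosphorylation. It did so for 517 of all 616 genes called lower (83.9%), which were chosen by their levels on the same HSC arrays. The part of admixed marrow cells or of handling in these falls was not tested.

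**Figure D5:**
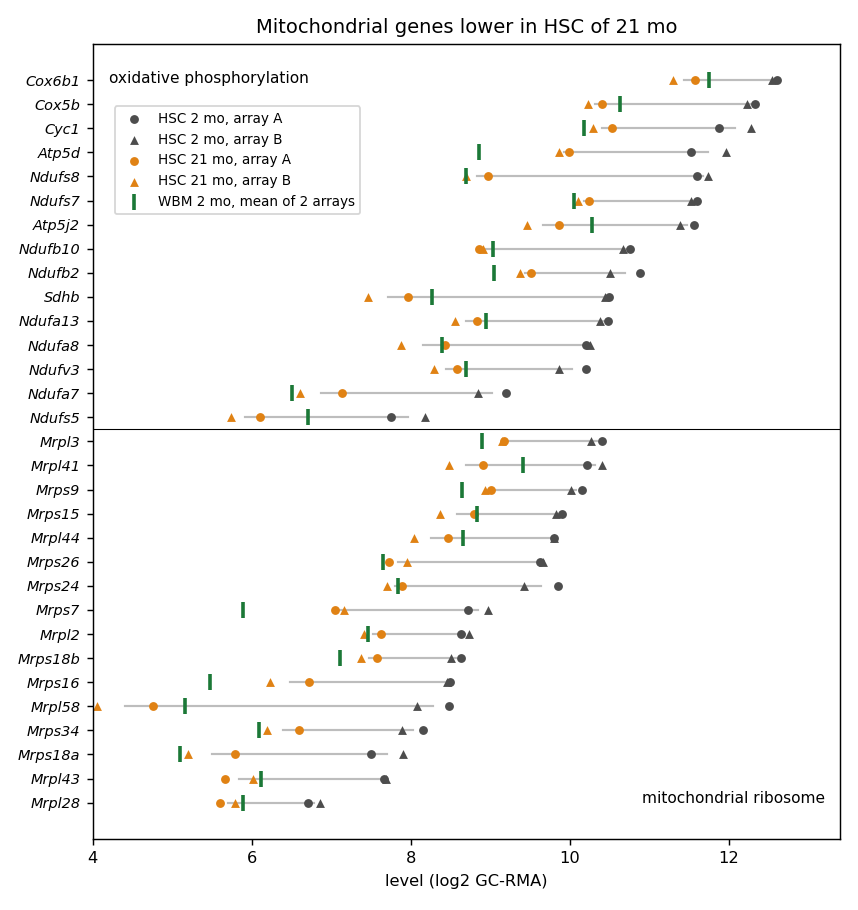
Level (log2 GC-RMA, horizontal axis) of the 15 oxidative phosphorylation and 16 mitochondrial ribosomal genes that fell, with symbols for each array of 2 and 21 mo HSC, a grey line between the means and a green bar at the mean of 2 WBM arrays of 2 mo. The 21 mo symbols lie left of the 2 mo symbols for every gene, and the bars lie nearer to the 21 mo symbols.

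The core of the NRF1 motif, the letters GCGCATGC, which read GCATGCGC where the core lies on the other strand, lies before the start of the mitochondrial genes Sdhb, Ndufa8 and Mrps18b. NRF1 is known as a regulator of nuclear genes for mitochondria, and these windows are shown as those of called members that hold the core. It occurs in 7.13% of promoters of genes called lower, 3.72% of those called higher, 5.15% of genes at log2 5 or above and 2.32% of all promoters. In the mitochondrial ribosomal list it lies in 12.3% of 65 promoters, but in only 1 of the 15 of genes that fell, and in the oxidative phosphorylation list in 10.8% of 65 and in 2 of the 14 of genes that fell. It is not particular to mitochondrial genes. It also lies in 2 of the 10 called genes of RNA polymerases and general factors, including Polr2j, whose window below holds it in small letters. Mrps18b read 8.62 and 8.50 at 2 mo and 7.58 and 7.38 at 21 mo, Sdhb and Ndufa8 as above. The windows of 250 bases are chr4:140961021-140961270 on the plus strand for Sdhb, chr2:36049339-36049588 on the minus strand for Ndufa8 and chr17:35916441-35916690 on the minus strand for Mrps18b (GRCm38.p6). The core, in capitals, starts 54, 8 and 223 bases before the gene's start.
Sdhb: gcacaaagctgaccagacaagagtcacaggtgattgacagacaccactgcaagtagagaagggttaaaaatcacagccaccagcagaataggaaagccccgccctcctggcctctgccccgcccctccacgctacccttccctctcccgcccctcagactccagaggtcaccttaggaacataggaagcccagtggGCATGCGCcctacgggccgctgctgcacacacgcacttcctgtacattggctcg
Ndufa8: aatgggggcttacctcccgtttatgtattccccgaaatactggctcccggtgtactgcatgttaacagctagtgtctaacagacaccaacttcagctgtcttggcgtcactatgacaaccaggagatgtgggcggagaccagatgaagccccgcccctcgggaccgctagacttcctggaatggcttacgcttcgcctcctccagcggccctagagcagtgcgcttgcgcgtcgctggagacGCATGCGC
Mrps18b: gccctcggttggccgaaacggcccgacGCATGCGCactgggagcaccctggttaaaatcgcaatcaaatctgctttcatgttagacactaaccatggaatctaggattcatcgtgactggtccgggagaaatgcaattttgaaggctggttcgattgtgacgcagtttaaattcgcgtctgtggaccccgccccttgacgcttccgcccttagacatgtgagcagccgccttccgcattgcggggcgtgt

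Several subunits of RNA polymerase II fell. Of 58 genes for RNA polymerases and general factors 7 (12.1%) fell and 3 rose (median -0.14). Polr2j read 9.34 and 9.04 at 2 mo and 6.21 and 5.38 at 21 mo, a 10.5-fold fall (SE 0.37, adjusted p = 0.0350). Polr2f, which polymerases I, II and III share, read 9.25 and 9.22 at 2 mo and 6.33 and 5.73 at 21 mo, 9.22-fold lower. Its other probe set stayed at 1.79 to 1.83 on all arrays. Polr2i, Polr2e and Polr2c, further subunits, fell 5.15-, 4.64- and 3.43-fold. Polr2a, the catalytic subunit, read 8.97 and 9.17 at 2 mo and 9.94 and 9.72 at 21 mo, and Polr2b 10.91 and 10.51 at 2 mo and 11.09 and 11.13 at 21 mo, and neither passed. Gtf2f1, a subunit of the general factor TFIIF, fell 4.15-fold, and Polr3k, of polymerase III, 2.85-fold. Gtf2b, the factor TFIIB, and Taf13 rose 2.12- and 2.86-fold. Polr2m, a regulator known as Gdown1, rose 5.52-fold, from 8.85 and 9.48 to 11.66 and 11.59.

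The core of the ETS motif, the letters CCGGAAGT on either strand, lies next to the start of both leading polymerase genes. It occurs in 7.92% of promoters of genes called lower, 4.60% of those called higher, 6.88% of genes at log2 5 or above and 2.93% of all promoters. In Polr2j the window is chr5:136116441-136116690 and in Polr2f chr15:79141075-79141324, both on the plus strand of GRCm38.p6. The core, in capitals, starts 19 and 17 bases before the gene's start.
Polr2j: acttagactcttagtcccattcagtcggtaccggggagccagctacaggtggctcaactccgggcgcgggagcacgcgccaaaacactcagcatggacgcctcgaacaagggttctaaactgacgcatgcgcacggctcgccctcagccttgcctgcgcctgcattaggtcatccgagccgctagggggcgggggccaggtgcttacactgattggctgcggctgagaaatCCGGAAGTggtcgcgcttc
Polr2f: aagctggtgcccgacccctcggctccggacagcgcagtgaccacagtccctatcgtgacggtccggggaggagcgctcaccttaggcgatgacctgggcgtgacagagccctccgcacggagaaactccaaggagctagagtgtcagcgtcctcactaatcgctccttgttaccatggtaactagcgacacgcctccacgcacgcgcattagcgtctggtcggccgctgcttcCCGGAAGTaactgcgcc

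RNA processing held both directions. Of 25 genes of the RNA exosome and decay, the exosome subunits Exosc10, Exosc4 and Exosc8 fell and 0 rose (4 and 3 without adjustment). Exosc10, its nuclear nuclease, read 9.12 and 8.87 at 2 mo and 5.78 and 5.83 at 21 mo, a 9.13-fold fall (adjusted p = 0.0120), and 2 further probe sets of it fell by 2.90 and 2.23 on the log2 scale. Exosc4 went from 5.57 and 5.84 to 2.18 and 2.20, and Exosc8 fell 3.98-fold. The other probe sets of Exosc4, and a dim probe set of Exosc10, did not pass. Of 70 splicing and hnRNP genes 4 rose and 6 fell. Rbm25, Hnrnpm and Hnrnpl, which choose splice sites, rose 6.40-, 5.09- and 3.66-fold. The Sm-like proteins Lsm10 and Lsm4, the core protein Snrpb and the tri-snRNP protein Prpf8 fell 5.18-, 3.47-, 2.49- and 2.10-fold. Kpna3, Kpna2 and Ipo11, carriers of proteins into the nucleus, rose 3.31-, 3.08- and 2.47-fold, with 3 of 41 nuclear pore and transport genes higher and 0 lower (4 and 2 without adjustment).

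Some genes of cytosolic translation passed. Of 45 cytosolic ribosomal proteins 4 (8.89%, against 4.97% of all genes) fell and 0 rose (7 and 0 at an unadjusted p of 0.05 and 2-fold), with a median of -0.32. Since 41 of the 45 were at log2 5 or above on at least 2 arrays, the share over all genes is a low baseline for them. Rps15 read 12.97 and 13.29 at 2 mo and 10.64 and 10.60 at 21 mo, 5.68-fold lower, and Rps14 and Rpl35 fell 3.75- and 2.47-fold. Rps27 went from 4.74 and 4.66 to 3.37 and 3.20. These genes have many pseudogenes, which the probes may share. Of 54 initiation and elongation factors 5 (9.26%, against 4.54% of all genes) rose and 3 fell, and 50 of the 54 were likewise at log2 5 or above. Eif4e, which binds the cap, rose 3.77-fold from 8.27 and 8.13 to 10.26 and 9.97, and Eif5b, which joins the ribosomal subunits, 6.52-fold. Eif4ebp1, the inhibitor of Eif4e, fell 2.54-fold, and Eif2ak4, the amino acid sensor GCN2, 2.56-fold. Of 38 ribosome biogenesis genes 3 rose and 2 fell. Beside Nop58, Ncl, the nucleolin of the nucleolus, read 10.37 and 10.37 at 2 mo and 13.40 and 12.78 at 21 mo, 6.58-fold higher, and Tsr1 rose 3.64-fold, while Ddx27 and Bop1 fell 5.88- and 2.08-fold.

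Several chromatin lists held falls and no rise. Among enzymes that remove acetyl groups, 4 of 17 sirtuins and histone deacetylases fell (23.5%, against 4.97% of all genes) and 0 rose, with 1 higher without adjustment. Sirt7, Sirt2, Hdac1 and Sirt3 fell 2.66-, 2.58-, 2.35- and 2.01-fold, with Sirt3, the mitochondrial deacetylase, at 9.69 and 9.52 at 2 mo and 8.63 and 8.57 at 21 mo. Of 12 DNA methylation genes, a short list, 3 (25%, against 4.97% of all genes) fell and 0 rose (4 and 0 without adjustment). Dnmt1, the maintenance methyltransferase that HSC need to self-renew, read 10.91 and 10.73 at 2 mo and 9.86 and 9.58 at 21 mo, and Dnmt3b, a methyltransferase that acts on unmarked DNA, and Mbd1, which binds methylated DNA, fell 3.59- and 2.96-fold. Histone acetyltransferases and bromodomain genes held 4 falls and 1 rise in 19. Kat7 and its partner Brpf1 fell 6.04- and 4.94-fold, Kat2a 2.80-fold and Ncoa1 3.22-fold, and Hat1, which acetylates new histones, rose 4.05-fold.

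The remodelling and architectural genes were divided. The ATPases Smarca5 and Smarca2 rose 3.02- and 2.80-fold and Chd7 2.47-fold, whereas Smarca4, the alternative ATPase to Smarca2 in SWI/SNF complexes, fell 3.31-fold. Of 19 cohesin and condensin genes 4 rose and 2 fell. Ctcf, which stops cohesin at loop anchors, read 7.90 and 7.49 at 2 mo and 9.99 and 9.94 at 21 mo, 4.82-fold higher. The ring proteins Rad21 and Smc1a rose 3.64- and 3.15-fold and Smc6, of a related repair complex, 8.35-fold. Nipbl, the loader of cohesin, and Ncaph, a condensin subunit, fell 2.88- and 6.50-fold. Kdm3b and Kdm5a, histone demethylases, rose 3.72- and 3.38-fold, and the methyltransferases Kmt2c and Kmt5c fell 4.64- and 2.64-fold. Of 23 polycomb genes Phc2 and Cbx6 fell, 2.24- and 2.14-fold. At the nuclear envelope, 4 of 17 genes (23.5%) fell and 0 rose (4 and 0 without adjustment). These were Syne1, Tor1a, Lemd2 and Tor1b, and the last 3 fell 3.96-, 3.23- and 2.40-fold.

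Few cell cycle genes were called, and the DNA repair genes called were all lower. Of 45 cell cycle and mitosis genes 1 (2.22%) rose and 2 (4.44%) fell. Mcm7, of the replicative helicase, read 12.86 and 12.82 at 2 mo and 11.13 and 10.79 at 21 mo, 3.68-fold lower, and Ccnd2, the main D cyclin of HSC, fell 2.36-fold. Rbl2, the p130 pocket protein of resting cells, rose 2.56-fold. Mki67, a marker of dividing cells, read 10.64 and 10.53 at 2 mo and 9.79 and 9.34 at 21 mo with an adjusted p of 0.0777, and Top2a read 9.55 and 9.46 at 2 mo and 9.73 and 9.14 at 21 mo. The inhibitors Cdkn1a and Cdkn1c read 10.87 and 10.60 at 2 mo and 10.58 and 10.29 at 21 mo and 7.01 and 7.21 at 2 mo and 7.68 and 7.52 at 21 mo, without passing. Cdkn2a, the source of p16 in senescent cells, was at 2.05 to 2.09 on every array. Of 59 DNA repair genes 4 (6.78%, against 4.97% of all genes) fell and 0 rose, with a median of -0.16. Without adjustment 11 fell and 1 rose, against 1025 and 967 of all 12393 genes. Blm, the helicase of Bloom syndrome, Xrcc1, of single-strand break repair, and Ddb2 and Ercc3, of nucleotide excision repair, fell 2.71-, 2.25-, 2.99- and 2.31-fold. Terf2, which caps telomeres, fell 2.41-fold, the only one of 17 telomere and senescence genes to pass. Pmaip1, the death-promoting Noxa, rose 3.65-fold and Bcl2l2, a survival protein, fell 2.37-fold.

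Some glycolytic genes rose. Of 29 genes of glycolysis and the pentose phosphate path 4 (13.8%) rose and 1 (3.45%) fell, with a median of 0.39. Ldha, which makes lactate, read 11.30 and 11.78 at 2 mo and 13.19 and 13.19 at 21 mo, and Pkm, pyruvate kinase, 8.53 and 8.56 at 2 mo and 10.13 and 10.27 at 21 mo. Both old arrays exceeded both young arrays for each, by 3.14- and 3.15-fold. Hk2 and Hk1, the hexokinases, rose 2.85- and 2.45-fold, and Taldo1, of the pentose path, fell 2.26-fold. Of 242 solute carriers 10 (4.13%) were higher and 8 (3.31%) lower. Only 87 of them were at log2 5 or above on at least 2 arrays, where most calls lay, so these shares are low partly by level. Slc16a1, the lactate carrier MCT1, rose 3.63-fold. Slc6a15 and Slc6a6, carriers of amino acids and taurine, rose 11.7- and 7.29-fold, and Slc19a1, the folate carrier, fell 3.46-fold. The citrate cycle held 3 rises (Sucla2, Pdha1 and Aco1) and 2 falls (Sdhb and Idh3g) in 24 genes. In the cholesterol and fatty acid list of 32 genes 6 rose and 4 fell. The sterol enzymes Cyp51, Idi1 and Sqle rose 5.79-, 3.78- and 3.74-fold, Cyp51 from 6.14 and 6.79 to 9.09 and 8.90, and Msmo1 rose from 3.20 and 3.29 to 5.80 and 5.59. Fasn, the fatty acid synthase, fell 5.88-fold beside its regulator Srebf1, and Fdps, also of the sterol path, fell 2.57-fold, with Tm7sf2 going from 3.33 and 3.47 to 2.11 and 2.16.

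Some redox genes rose. Of 55 antioxidant, glutathione and metallothionein genes 6 (10.9%) rose and 0 fell, 9 and 2 without adjustment, with a median of -0.01. Beside Mt1, Mt2 and Gstm2, Gsr, the reductase that regenerates glutathione, read 4.72 and 4.69 at 2 mo and 7.43 and 8.29 at 21 mo, 8.89-fold higher. Glrx, a glutaredoxin, and Txnrd1, a thioredoxin reductase, rose 3.76- and 3.16-fold. The superoxide dismutase Sod1 read 12.29 and 12.31 at 2 mo and 12.85 and 12.60 at 21 mo and catalase, Cat, 9.84 and 9.72 at 2 mo and 9.68 and 9.81 at 21 mo, and neither passed. Of 22 iron and haem genes 1 rose and 3 fell. Alad and Ppox, enzymes of haem synthesis, fell 2.50- and 3.65-fold and Iscu, the scaffold on which iron-sulphur clusters are built, 2.26-fold. Aco1, which binds iron-responsive messages when it lacks a cluster, rose 2.15-fold.

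Genes that rose and genes that fell also differed in features the test did not use, given here as a description. Spans were read on genes with a promoter window. The 457 called higher spanned a median of 31.7 kb on the genome, the 505 called lower 14.2 kb and the 5147 at log2 5 or above 22.3 kb. The 250 bases before the start had a median GC content of 62.4% in genes called higher and 58.8% in genes called lower, against 60.4% in genes at log2 5 or above. Short genes are a known feature of the ribosomal and respiratory lists, with median spans of 7.31 kb over 65 mitochondrial ribosomal genes and 7.50 kb over 65 of oxidative phosphorylation.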

How the data were processed

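RNA was isolated from sorted HSC with an RNAqueous kit, treated with DNase, amplified by successive rounds of in vitro transcription, labelled with biotin and hybridised to MOE430A arrays, which were read with MAS 5.0. Values are the log2 GC-RMA values deposited by the authors, 1 for each probe set. The version of GCRMA is not given in the sources used here, nor is whether the arrays were normalized jointly. Of 22690 probe sets, 64 controls were left out. Of the 22626 tested, 20380 carried 1 gene symbol in the platform annotation, 691 several and 1555 none, and 20349 of the first matched RefSeq by Entrez ID. An array has no sequencing depth, and precision is limited by the number of arrays.

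The groups were taken from the sample titles. The 2 groups were compared with limma (version 3.58.1, under R 4.3.3), a linear model with moderated variances and a two-sided test, and Benjamini-Hochberg adjustment over all probe sets tested, and a call needed an adjusted p under 0.05 and 2-fold. Arrays of a group are pools of mice, so a p-value measures the spread between pools. The total degrees of freedom were 2.91, of which 0.91 came from the prior. An exact permutation test of 2 against 2 arrays cannot give a p below 0.333. A gene was read on the probe set of 1 symbol that was brightest on average over these arrays. The letters A and B did not pair the arrays, since A minus B at 2 mo correlated with A minus B at 21 mo at 0.02 over all probe sets. The fit was also run on simulated data in which only the probe sets counted here, all brighter ones, were changed. It called 8 of 67 probe sets changed by 1 on the log2 scale, 15 of 67 changed by 2 and 37 of 66 changed by 4. There were 2 false calls among the unchanged probe sets. Recovery under the adjustment depends on the share of probe sets that change. Far more were called in the data, so these rates do not describe this comparison.

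The comparison and the gene lists were chosen with earlier results of these data known, so no list count is independent evidence. Genes were named as the 15 largest rises and falls with both means at log2 5 or above, the 10 largest from or to a lower level, and up to 4 called genes in each direction of a list. Further called members of these lists, and Satb1, were named after their values were seen. Lists are described by their counts and medians with no test. Promoter windows came from RefSeq (GRCm38.p6), the first start listed for a gene, and 9882 measured genes had one. Alternatives varied the arrays, normalization, filter, variance prior, threshold and probe set of a gene.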

Additional observations from a re-analysis of the deposited data

How the results depend on the processing

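The number of calls depended on the processing. Of 325 named genes under the 14 alternatives that keep the probe set of a gene, 2235 of 4539 values kept their side of the threshold, 2304 lost it and 0 changed sign. The counts below give probe sets higher and lower, then genes higher and lower, beside 1083, 899, 563 and 616 as reported. Leaving out each array in turn gave 0 to 608, 0 to 450, 0 to 295 and 0 to 286. The lowest values came without either 2 mo array, when 1617 to 1669 probe sets were higher and 1388 to 1420 lower at an unadjusted p of 0.05 and 2-fold, and the lone array left in a group is assumed to vary like the other group. Without 21 mo array A the counts were 608, 450, 295 and 286, and without 21 mo array B 484, 334, 236 and 205. A replicate block for the letters A and B, which did not pair the arrays, gave 745, 614, 399 and 432, of which 629, 512, 329 and 356 were shared with the calls reported. Quantile normalization gave 724, 707, 365 and 483, testing only probe sets at log2 5 or above on at least 2 arrays 1785, 1523, 953 and 1005, and values under 5 set to 5 475, 353, 240 and 251. With that floor many residual variances were 0, so its prior is unreliable. The spread of all 8 WT HSC arrays gave 155, 198, 84 and 155, a prior with an intensity trend 1521, 1301, 803 and 858, and a robust prior 831, 658, 428 and 450. Other thresholds gave 1827, 1564, 967 and 1025 at an unadjusted p of 0.05, 30, 18, 7 and 14 at an adjusted p under 0.01, and 386, 253, 187 and 139 at 4-fold. The mean of all probe sets of a gene gave 562 genes higher and 548 lower, of which 399 and 461 were shared, and for 17 genes the direction of the call turns with the probe set read. Fewer degrees of freedom from fewer arrays, and more from the trend or the filter, enter by construction, and the cause of the other differences was not tested. Quantile normalization moved the median of all genes to -0.00055, and among lists with a median beyond 0.05 that of core and linker histone genes alone changed sign.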

Other observations

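Some genes gave opposite calls on their own probe sets, 17 in all, which were named after their values were seen. Malat1, a nuclear noncoding RNA, fell on one probe set, from 13.03 and 13.17 at 2 mo to 10.06 and 10.91 at 21 mo, and rose on another, from 11.21 and 10.64 to 12.96 and 13.41. Tsc22d1, a leucine zipper protein induced by TGF-beta, rose on its 2 called bright probe sets, for example from 12.40 and 12.47 to 14.05 and 13.95, and fell on another from 6.97 and 6.58 to 3.28 and 3.90. Irak1, a kinase below Toll-like receptors, fell on 2 probe sets, one from 11.38 and 11.42 to 9.41 and 9.46, and rose on another from 7.80 and 8.20 to 9.81 and 10.01. Grb10, an imprinted adaptor that dampens insulin and Kit signalling, rose from 9.66 and 9.73 to 10.82 and 11.14 on its brightest probe set and fell from 6.36 and 5.98 to 3.47 and 3.65 on another. Map1lc3b, Myh9, Ccng1, Rbbp6, Smu1, Mapre2, Mtmr9, Cdadc1, Chpt1, Asph, Aldh9a1, Atxn7l3b and Ier3ip1 behaved likewise. The array files used here do not say which part of each transcript a probe set reads. More widely, 321 called higher genes had 553 further probe sets, of which 113 were called higher as well and 329 had a positive difference. For 288 genes called lower, 526 further probe sets held 117 called lower and 451 with a negative difference.

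The balance of calls varied by chromosome, as a description. On chromosome 12, 28 of 384 genes were higher (7.29%) and 4 lower (1.04%). On chromosome 7, 19 of 958 were higher (1.98%) and 53 lower (5.53%), and on chromosome 17, 19 of 596 were higher (3.19%) and 51 lower (8.56%). The X chromosome held 32 of 402 genes higher (7.96%) and 17 lower (4.23%).

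Nuclear receptors (37 measured) and core and linker histone genes (15) had 0 calls in either direction by limma. At an unadjusted p of 0.05 and 2-fold, 1 and 0 genes of these lists were higher and 0 and 2 lower. Of 123 ion channel genes 2 rose and 4 fell, and of 36 ABC transporters 0 rose and 2 fell (2 and 3 without adjustment).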
